A study of Homo sapiens with 4 samples.

Results

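The CTCF and H3K27ac peaks of chromosomes 4, 13 and 18, human autosomes with few genes for their length, were described in DU145 cells. Every peak that the deposited lists place on these chromosomes was taken, whatever its strength: 2893 of 36152 CTCF peaks (8.00%) and 2928 of 50364 H3K27ac peaks (5.81%), in all 5821 of 86516 peaks. Chromosome 4 held 1500 CTCF and 1554 H3K27ac peaks, chromosome 13 held 669 and 599, and chromosome 18 held 724 and 775. Chromosomes 17 and 22, with 2570 CTCF and 5251 H3K27ac peaks between them, served as the comparison. DU145 is an established prostate cancer line from a brain metastasis, and the labels name no treatment of it. Chromatin was fixed with formaldehyde, sheared by sonication and pulled down with an antibody to CTCF in one library and to H3K27ac in the other. The input libraries of DU145 and of LNCaP, another prostate cancer line, were not analysed here. Each mark comes from 1 library of 1 cell line, so no value below has a replicate error and no difference was tested. Intervals cover counting error only and treat peaks as independent, although neighbouring peaks share their surroundings.

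CTCF is a zinc finger protein that binds a long DNA motif, blocks the contact of enhancers with promoters beyond it, and halts cohesin at the base of chromatin loops. Acetylation of lysine 27 on histone H3 is found on nucleosomes beside active promoters and enhancers. Gene-poor human chromosomes contain long gene deserts and tend to lie towards the edge of the nucleus, where much of the chromatin is in contact with the lamina and carries little acetylation. CTCF binds in both active and inactive chromatin, so the pair of marks shows how far a stretch of chromosome has binding without acetylation.

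The choice of chromosomes was checked against the number of protein-coding genes in RefSeq (GRCh38.p14). Chromosome 13 had 2.96 protein-coding genes per Mb, chromosome 18 had 3.37 and chromosome 4 had 4.04, the lowest 3 of the 22 autosomes. Chromosome 17 had 14.1 and chromosome 22 had 8.88, the second and the fifth highest. The other 19 autosomes ranged from 4.92 on chromosome 8 to 24.8 on chromosome 19.

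Both marks were sparse on the gene-poor chromosomes, and acetylation more so than CTCF. Over the stretch from the first to the last peak, chromosome 13 had 6.98 CTCF peaks per Mb (exact Poisson 95% interval 6.46 to 7.53), chromosome 4 had 7.85 (7.46 to 8.26) and chromosome 18 had 9.28 (8.62 to 9.98). H3K27ac followed the same order, with 6.25 peaks per Mb (5.76 to 6.77) on chromosome 13, 8.13 (7.74 to 8.55) on chromosome 4 and 9.94 (9.25 to 10.7) on chromosome 18. For each mark these were the lowest 3 values among the 22 autosomes. The nearest of the others was chromosome 21 for CTCF, with 10.1 per Mb, and chromosome 6 for H3K27ac, with 11.99 per Mb.

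Chromosomes 17 and 22 together had 22.1 CTCF peaks per Mb (interval 21.3 to 22.97) and 45.2 H3K27ac peaks per Mb (43.9 to 46.4). The gene-poor chromosomes together had 7.93 CTCF peaks (7.64 to 8.22) and 8.02 H3K27ac peaks (7.74 to 8.32). The contrast was thus 2.79 times for CTCF and 5.63 times for H3K27ac. Chromosome 13 had 0.895 H3K27ac peaks for each CTCF peak, chromosome 4 had 1.04 and chromosome 18 had 1.07. Chromosome 13 was the one autosome with fewer H3K27ac than CTCF peaks, while chromosomes 17 and 22 had 2.04 and 2.05 H3K27ac peaks per CTCF peak. With both lists restricted to a −log10 q of 10 or more, the ratio on the gene-poor chromosomes was 0.623 in place of 1.01, and that of chromosomes 17 and 22 was 0.962 in place of 2.04. With only the stronger part of each list by fold, the ratios were 1.28 and 1.65. How many acetylated regions there are per CTCF site therefore depends on the cut-off, while the gene-poor chromosomes had the lower ratio under each.

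**Figure D1:**
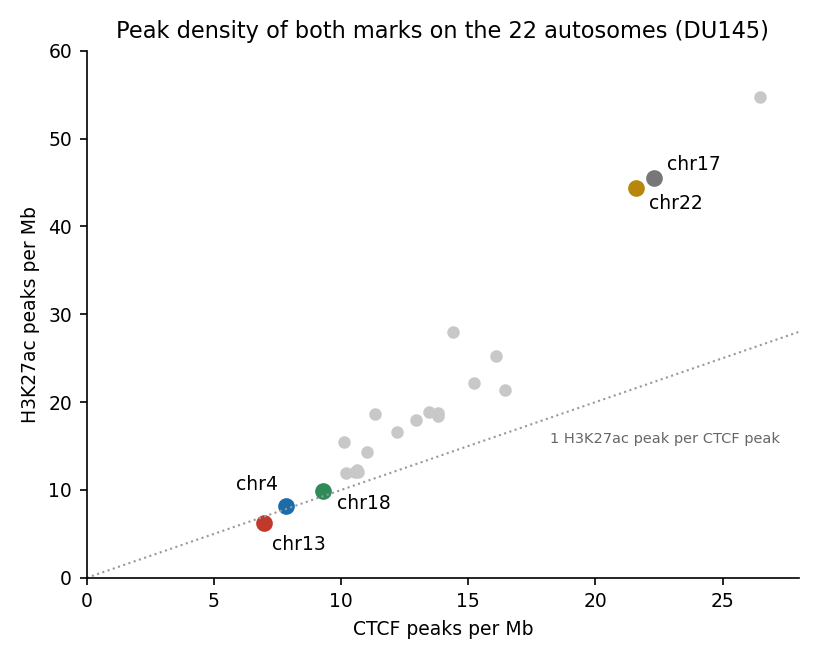
Each point is 1 autosome, placed by its CTCF peaks per Mb (x axis) and H3K27ac peaks per Mb (y axis), with the 5 chromosomes of the comparison labelled and the other autosomes in light grey. Chromosomes 4, 13 and 18 lie at the lower left, next to the dotted line of 1 H3K27ac peak per CTCF peak, and chromosomes 17 and 22 lie well above it.

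Set against the number of protein-coding genes, the contrast with chromosomes 17 and 22 shrank for acetylation and turned for CTCF. Chromosomes 4, 13 and 18 had 2.02, 1.77 and 2.87 H3K27ac peaks per protein-coding gene, against 3.16 on chromosome 17 and 3.45 on chromosome 22. Chromosome 13 was the lowest autosome by this measure, whereas chromosome 18 was the ninth highest. CTCF peaks per protein-coding gene were 1.95, 1.98 and 2.68 on chromosomes 4, 13 and 18, against 1.55 and 1.68 on chromosomes 17 and 22. The value of chromosome 18 was the highest of all autosomes. Chromosomes 4 and 13 were only the 12th and 10th highest, near the median of 1.88 of the other 19 autosomes. Gene numbers were taken from a newer build than the peaks, as whole-chromosome counts.

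The background behind the peaks differed between these chromosomes. The labels do not say which input library, if any, served as background for which list. The background behind each H3K27ac peak was solved from the deposited values and had a median of 3.18 fragments on chromosome 13, 3.70 on chromosome 4 and 5.15 on chromosome 18, against 4.01 on chromosome 17 and 3.18 on chromosome 22. The lowest background in the list, which stands for the genome-wide level, applied to 50.3% of the H3K27ac peaks of chromosome 13 and to 50.5% of those of chromosome 22. Chromosome 18 had the second highest median background of the autosomes. Backgrounds are known only where a peak was called and do not go below the genome-wide level. The part of background in the densities was not tested.

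Peaks of the gene-poor chromosomes were more crowded into a small part of their length than on chromosomes 17 and 22, above all for acetylation. Each peak was assigned to a 1 Mb bin by its summit, which gave 368 bins: 192 on chromosome 4, 97 on chromosome 13 and 79 on chromosome 18. The fullest 10% of these bins held 47.4% of the H3K27ac peaks (Wilson 95% interval 45.6 to 49.2) and 25.8% of the CTCF peaks (24.2 to 27.4). On chromosomes 17 and 22, with 118 bins, the same shares were 29.5% (28.3 to 30.7) and 20.5% (18.99 to 22.1). Over the other 19 autosomes pooled the shares were 43.2% for H3K27ac and 26.3% for CTCF. The median bin of the gene-poor chromosomes held 3 H3K27ac and 7 CTCF peaks, against 34 and 20 on chromosomes 17 and 22.

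By this share, chromosome 4 was the most uneven of the 22 autosomes for acetylation. Its 20 fullest bins held 812 of 1554 H3K27ac peaks, 52.3% (interval 49.8 to 54.7), against 43.1% on chromosome 13 and 40.8% on chromosome 18. Chromosome 9, with 51.3%, lay within that interval. Chromosomes 13 and 18 were the 10th and 13th highest, near the median of 42.1% of the other 19 autosomes. Without chromosome 4, the share on the gene-poor chromosomes was 42.7%. On chromosome 4, only 19 bins (9.90%) were needed to reach 50% of the H3K27ac peaks, against 46 bins (24.0%) for the CTCF peaks. Chromosome 17 needed 18 of its 82 bins for H3K27ac.

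**Figure D2:**
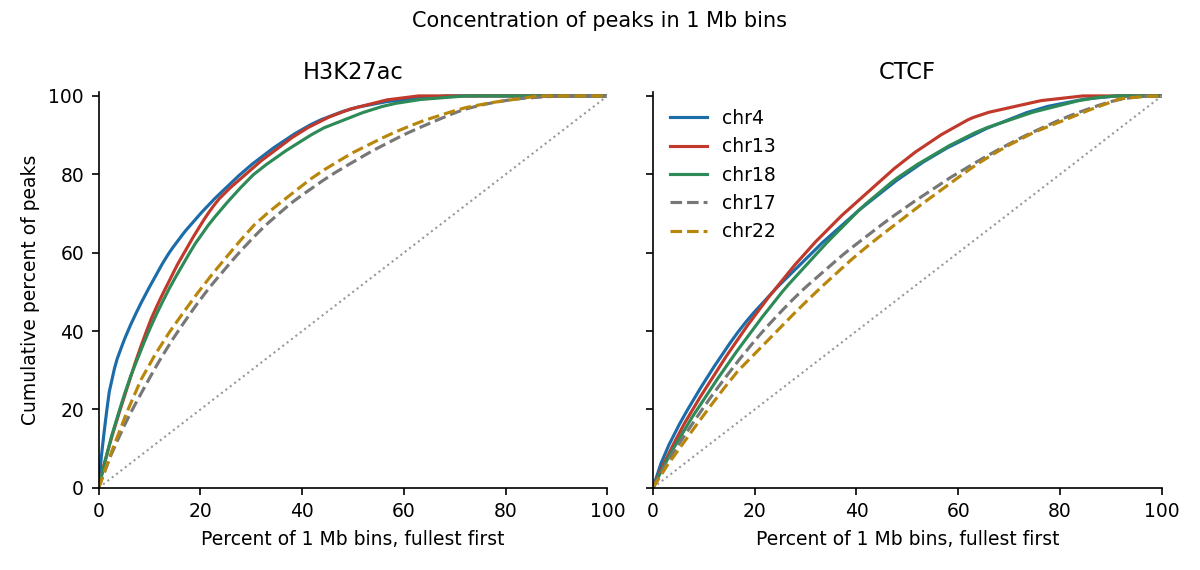
Cumulative percent of peaks (y axis) against the percent of 1 Mb bins, ordered from the fullest (x axis), for H3K27ac (left) and CTCF (right), with 1 line per chromosome and the diagonal for even spread. Lines of chromosomes 4, 13 and 18 (solid) lie above those of chromosomes 17 and 22 (dashed) over most of each panel, and the H3K27ac line of chromosome 4 rises most steeply.

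The fullest bins of chromosome 4 lay near the tip of its short arm. The bin from 1 to 2 Mb held 123 H3K27ac and 31 CTCF peaks, and no other bin of the chromosome exceeded either number. It was followed for H3K27ac by the bin from 2 to 3 Mb, with 93 H3K27ac and 20 CTCF peaks, and the bin from 7 to 8 Mb, with 86 and 24. Many of these H3K27ac peaks were weak. Their median fold enrichment over background was 3.83, 3.89 and 3.85 in the 3 bins, against 4.79 on the whole chromosome. The bins from 6 to 7 Mb and from 8 to 9 Mb matched the highest CTCF number of 31, with 37 and 17 H3K27ac peaks. The first 10 bins, 5.21% of the bins, held 29.1% of the H3K27ac and 15.0% of the CTCF peaks of the chromosome. At the other end, the last 10 bins held 4.89% and 5.47%. This look at the ends was chosen after the bins had been seen.

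Neighbouring H3K27ac peaks at most 12.5 kb apart were merged into domains to see how the crowded bins were built. The domain with most peaks on chromosome 4, from 7804273 to 7941636, held 44 H3K27ac peaks over 137 kb with 4 CTCF summits. The second, from 1871579 to 1996010, held 39 H3K27ac peaks over 124 kb, also with 4 CTCF summits. Chromosome 4 had 16 domains of 10 or more peaks, which held 18.4% of its H3K27ac peaks. On chromosome 17 there were 87 such domains with 40.2% of the peaks.

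Chromosome 13 had no bin or domain of that size. Its fullest H3K27ac bin, from 45 to 46 Mb, held 35 H3K27ac and 15 CTCF peaks. Next came the bins from 111 to 112 Mb, with 29 and 19, and from 113 to 114 Mb, with 27 and 17. The CTCF-richest bin, from 25 to 26 Mb, held 21 CTCF but only 14 H3K27ac peaks, and the bin from 20 to 21 Mb held 18 CTCF and 26 H3K27ac peaks. No domain on chromosome 13 reached 10 peaks. Its fullest domains held 8 peaks each, at 30141736 to 30170387, 50646955 to 50657790 and 76334851 to 76347057, and none of these had a CTCF summit. The first and last 10 bins of chromosome 13 held similar shares of its H3K27ac peaks, 18.7% and 18.5%.

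Chromosome 18 also had its fullest H3K27ac bins on the short arm, and its first 10 bins, 12.7% of the bins, held 25.4% of its H3K27ac peaks. The bin from 9 to 10 Mb held 52 H3K27ac and 12 CTCF peaks, and its neighbour from 8 to 9 Mb held 50 and 20. The bin from 12 to 13 Mb held 42 H3K27ac peaks and, with 24, the most CTCF peaks of the chromosome. Next in CTCF were the bins from 34 to 35 Mb, with 23 CTCF and 18 H3K27ac peaks, and from 0 to 1 Mb, with 22 of each. Its fullest domain, from 8704454 to 8806747, held 34 H3K27ac peaks over 102 kb and 1 CTCF summit. The second, from 74765847 to 74845349, held 29 H3K27ac peaks and 1 CTCF summit.

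Long stretches without either mark were common on the gene-poor chromosomes and rare on chromosomes 17 and 22. Stretches over 1 Mb numbered 19 on chromosome 4, 14 on chromosome 13 and 6 on chromosome 18, and together covered 77.8 Mb, 21.3% of the length from first to last peak. On chromosome 13 alone they covered 28.5%. Chromosome 17 had 2 such stretches with 4.21 Mb, and chromosome 22 had none, its longest being 0.913 Mb. Over the other 19 autosomes, stretches over 1 Mb covered 10.9%, and the longest, on chromosome 1, was 21.1 Mb. Unsequenced gaps of hg19 between the first and the last peak count as empty in all these values. Their part was not determined.

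With all peaks, chromosome 13 had the longest stretches of the gene-poor chromosomes, all on its long arm. They ran from 81591998 to 85470213 (3.88 Mb), from 54356844 to 58199007 (3.84 Mb) and from 87926765 to 91519628 (3.59 Mb). The first and the last lay inside a region of 11 successive bins without H3K27ac, from 81 to 92 Mb, in which only 12 CTCF peaks stood. On chromosome 4 the longest stretch, from 49521675 to 52697325 (3.18 Mb), lies at the centromere. On chromosome 18 the longest, from 15315613 to 18551882 (3.24 Mb), also lies at the centromere, as does that of chromosome 17, from 22259892 to 25334893 (3.08 Mb). As background, hg19 has an unsequenced gap at each of these centromeres, where no peak can be called. The next stretches were away from the centromeres. On chromosome 4 they ran from 58057401 to 61066857 (3.01 Mb) and from 27694023 to 30382013 (2.69 Mb), and on chromosome 18 from 61685401 to 64867581 (3.18 Mb) and from 35359036 to 37282198 (1.92 Mb). The second longest stretch of chromosome 17 was 1.13 Mb. The order of chromosomes 4 and 13 depends on the cut-off: at a −log10 q of 10 or more the longest stretches were 7.22 Mb on chromosome 4 and 6.58 Mb on chromosome 13, and with the stronger part of each list by fold they were 7.22 and 11.6 Mb.

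**Figure D3:**
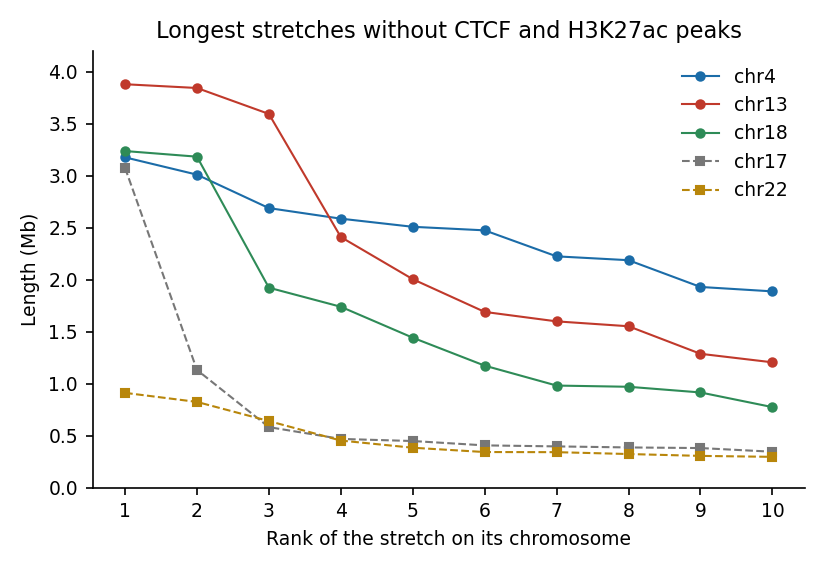
Length in Mb (y axis) of the 10 longest stretches without a CTCF or H3K27ac peak on each chromosome, by rank (x axis), with 1 line per chromosome. The tenth longest stretch was still 1.89 Mb on chromosome 4 and 1.21 Mb on chromosome 13, whereas chromosome 17 fell to 1.13 Mb at the second and chromosome 22 stayed under 1 Mb.

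The long empty stretches were bordered by CTCF far more often than by acetylation. Of the 39 stretches over 1 Mb on the gene-poor chromosomes, 36 (92.3%) had a CTCF peak at both edges and 0 had H3K27ac at both. Among all 5553 stretches between successive peaks of these chromosomes, 33.3% had CTCF at both edges and 35.9% had H3K27ac at both. A stretch inside a longer region without H3K27ac can only have CTCF at its edges, so the comparison partly restates where acetylation is absent. On chromosome 17, 2 of 2 stretches over 1 Mb also had CTCF at both edges. Typical spacing was much shorter: the median gap between successive CTCF peaks was 55.2 kb on the gene-poor chromosomes and 22.8 kb on chromosomes 17 and 22. For H3K27ac the median gap was 13.7 kb on chromosome 13, 6.89 kb on chromosome 4 and 7.55 kb on chromosome 18, against 2.44 kb on chromosomes 17 and 22.

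Stretches without acetylation alone were longer still, and CTCF peaks were scattered through them. On chromosome 13 the longest was 12.3 Mb, from 60972840 to 73301031, with 22 CTCF summits, and the second was 11.1 Mb, from 80917095 to 91999866, with 14. On chromosome 4 the longest was 8.96 Mb, from 130017627 to 138974125, and the second 8.16 Mb, from 26863509 to 35022534, with 13 CTCF summits in each. Chromosome 18 reached 4.74 Mb, from 61638603 to 66381302, with 6. The longest on chromosome 17 was 3.63 Mb and that on chromosome 22 was 2.78 Mb. By contrast, no stretch without CTCF on chromosomes 4, 13 or 18 exceeded the 3.88 Mb given above.

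Bins of 1 Mb without any H3K27ac peak made up 32.3% of the gene-poor chromosomes, 119 of 368 (Wilson interval 27.8 to 37.3), where 21.5% of all autosomal bins had none. There were 61 on chromosome 4 (31.8%), 36 on chromosome 13 (37.1%, the highest of the autosomes) and 22 on chromosome 18 (27.8%). Chromosomes 17 and 22 had 6 and 4 (together 8.47%, interval 4.67 to 14.9). Chromosome 16 also had a high share, 35.2%. Bins in unsequenced gaps of hg19, where no peak can be called, were counted as bins without H3K27ac. Their part in the share of each chromosome was not determined. On chromosome 13 the longest run was 12 successive bins from 61 to 73 Mb, with 20 CTCF peaks in 9 of them. Next there came 11 bins from 81 to 92 Mb, with 12 CTCF peaks in 5. The longest run of chromosome 4 was 8 bins from 27 to 35 Mb, with 13 CTCF peaks in 5.

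With all peaks, CTCF was present in most of the bins without acetylation. Of the 119, 81 held at least 1 CTCF peak, 68.1% (interval 59.2 to 75.8), where 72.1% of such bins on all autosomes did. The share was 72.1% on chromosome 4, 61.1% on chromosome 13 and 68.2% on chromosome 18. These bins held 251 CTCF peaks, 2.11 per Mb (exact Poisson interval 1.86 to 2.39), against 10.6 per Mb in bins with H3K27ac. With only the stronger part of each list by fold, 37.1% of the bins without H3K27ac held CTCF (29.4 to 45.6), at 0.727 per Mb. With all peaks, bins without H3K27ac held 8.68% of the CTCF peaks of the gene-poor chromosomes, against 1.63% on chromosomes 17 and 22. On all autosomes together such bins held 4.52%. The reverse case, H3K27ac without CTCF in a bin, occurred in 1 of 368 bins, where 5 of 2810 bins on all autosomes had it. It was the last bin of chromosome 13, from 115 to 116 Mb, which holds 2 H3K27ac peaks and lies only in part on the chromosome.

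The bins without acetylation that held most CTCF peaks were spread over all 3 chromosomes. On chromosome 4, the bin from 55 to 56 Mb held 14 CTCF peaks, the bin from 112 to 113 Mb held 9 and the bin from 12 to 13 Mb held 6. On chromosome 13, the bins from 78 to 79 Mb, 61 to 62 Mb and 91 to 92 Mb held 10, 8 and 4. On chromosome 18 the highest numbers were 7 in the bin from 25 to 26 Mb and 6 in each of the bins from 27 to 28 Mb and from 58 to 59 Mb. Bins with H3K27ac held on average 10.4 CTCF peaks per Mb on chromosome 4, 10.1 on chromosome 13 and 11.8 on chromosome 18, and of the bins named here the one with 14 alone exceeded its chromosome's value.

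CTCF peaks in bins without H3K27ac had lower fold enrichments than the others. On the gene-poor chromosomes their median fold enrichment, the authors' ratio of signal at the summit to local background, was 7.13 (quartiles 5.47 and 9.97) against 8.91 (6.18 and 13.2) in bins with H3K27ac. They rested on a median of 27 fragments at the summit against 39, and 62.5% against 78.5% reached a −log10 q of 10. The order was the same on each chromosome, with medians of 7.15 against 8.84 on chromosome 4, 6.87 against 9.11 on chromosome 13 and 7.48 against 9.43 on chromosome 18. It also held on chromosomes 17 and 22, at 6.53 against 11.2. The genome-wide background applied to 55.4% of CTCF peaks in bins without H3K27ac and to 38.0% of the others, and its part in the difference was not tested. Their median distance to the nearest H3K27ac peak was 0.584 Mb, and the farthest, on chromosome 13, was 5.49 Mb away.

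CTCF peaks of the gene-poor chromosomes lay far from acetylation. The median CTCF peak lay 45.9 kb from the nearest H3K27ac peak on chromosome 4, 47.9 kb on chromosome 13 and 46.9 kb on chromosome 18, against 5.6 kb on chromosome 17 and 9.38 kb on chromosome 22. Of the CTCF peaks on the gene-poor chromosomes, 944 (32.6%, interval 30.9 to 34.4) were more than 100 kb away, where 21.9% of the whole CTCF list was. Chromosomes 4, 13 and 18 had the highest shares of the autosomes, at 33.9%, 32.9% and 29.8%. On chromosomes 17 and 22 the share was 8.17% (7.17 to 9.29). Seen from acetylation, 5.36% of H3K27ac peaks on the gene-poor chromosomes had no CTCF peak within 100 kb, against 0.667% on chromosomes 17 and 22. On all autosomes together the share was 3.20%.

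CTCF peaks overlapped acetylation less often on the gene-poor chromosomes. With 1 shared base counted as overlap, 246 of the 2893 CTCF sites touched an acetylated region, 8.50% (7.54 to 9.58, Wilson), where 14.2% of the whole list did. Summits lay inside an acetylated region for 148 of them, 5.12%, where 8.4% of the whole list did. The shares were 9.0% on chromosome 4, 8.07% on chromosome 13 and 7.87% on chromosome 18, the lowest 3 of the autosomes, and their intervals overlapped. The other 19 autosomes ranged from 10.6% on chromosome 3 to 22.3% on chromosome 17. On chromosomes 17 and 22 together, 533 of 2570 (20.7%, interval 19.2 to 22.4) overlapped, so the difference was −12.2 percentage points (interval −14.1 to −10.4). H3K27ac peaks covered 0.689% of the length on the gene-poor chromosomes and 3.85% on chromosomes 17 and 22. Coverage thus differed 5.58 times and the overlap share 2.44 times, so overlap was not lower relative to the length covered. The part of coverage in the overlap was not tested.

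Seen from H3K27ac, the difference in overlap was smaller and varied with the cut-off. Among 2928 acetylated regions, 256 met CTCF, 8.74% (7.77 to 9.82), where 10.1% of the whole list did. The shares were 9.01% on chromosome 4, 9.68% on chromosome 13 and 7.48% on chromosome 18, against 10.8% on chromosome 17 and 8.54% on chromosome 22. The difference from chromosomes 17 and 22 pooled was −1.41 percentage points (interval −2.69 to −0.0721), but chromosomes 4 and 13 lay above chromosome 22. When the CTCF summit had to lie inside the H3K27ac peak, the difference was −0.106. It was −4.03 at a −log10 q of 10 or more, −3.28 with the stronger part of each list by fold, and −3.52 when peaks within 1 kb were counted as overlapping. Per Mb of H3K27ac peak, CTCF summits numbered 58.8 on the gene-poor chromosomes and 61.9 on chromosomes 17 and 22.

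Bins with like numbers of H3K27ac peaks were then compared, since most bins of the gene-poor chromosomes hold few. These classes were chosen with the bins already seen. In bins with 1 to 5 H3K27ac peaks, 4.07% of CTCF peaks overlapped acetylation on the gene-poor chromosomes (27 of 664, interval 2.81 to 5.85) and 3.92% on chromosomes 17 and 22 (4 of 102, interval 1.54 to 9.65). In bins with 6 to 20 the shares were 8.99% (7.54 to 10.7) and 8.78% (5.92 to 12.8). In bins with 21 to 50 they were 14.0% (11.5 to 17.05) and 16.2% (14.0 to 18.8), and in bins with over 50 they were 21.1% (14.1 to 30.3) and 28.5% (26.1 to 31.0). The intervals overlapped in every class, which does not show that the shares were alike, and in both fuller classes the gene-poor chromosomes had the lower share. With the class shares of chromosomes 17 and 22, the CTCF peaks of the gene-poor chromosomes would have overlapped in 9.07% of cases, where 8.50% were counted. With the class shares of the gene-poor chromosomes, those of chromosomes 17 and 22 would have overlapped in 16.3% of cases, where 20.7% were counted. Both calculations include the bins without H3K27ac, where the share was 0% in each part almost by construction. They are descriptions, and the part of H3K27ac number in the overlap was not tested.

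CTCF density was lower on the gene-poor chromosomes in each class of bins. Bins without H3K27ac held 2.11 CTCF peaks per Mb there and 4.2 on chromosomes 17 and 22. The values were 6.85 and 11.3 for bins with 1 to 5 H3K27ac peaks, 11.6 and 15.4 for 6 to 20, 16.4 and 21.4 for 21 to 50, and 19 and 31.6 for over 50. Exact Poisson intervals did not overlap in any class, and the contrast ranged from 1.30 to 1.99 times. Only 5 bins of the gene-poor chromosomes and 40 of chromosomes 17 and 22 were in the class over 50. Within a chromosome the marks went together: over bins, Spearman's rho between CTCF and H3K27ac numbers was 0.827 on chromosome 4 (192 bins), 0.849 on chromosome 13 (97 bins) and 0.890 on chromosome 18 (79 bins), and Pearson's r was 0.632, 0.778 and 0.766. Bins share libraries, depth and base composition with their neighbours, so these coefficients are descriptions.

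**Figure D4:**
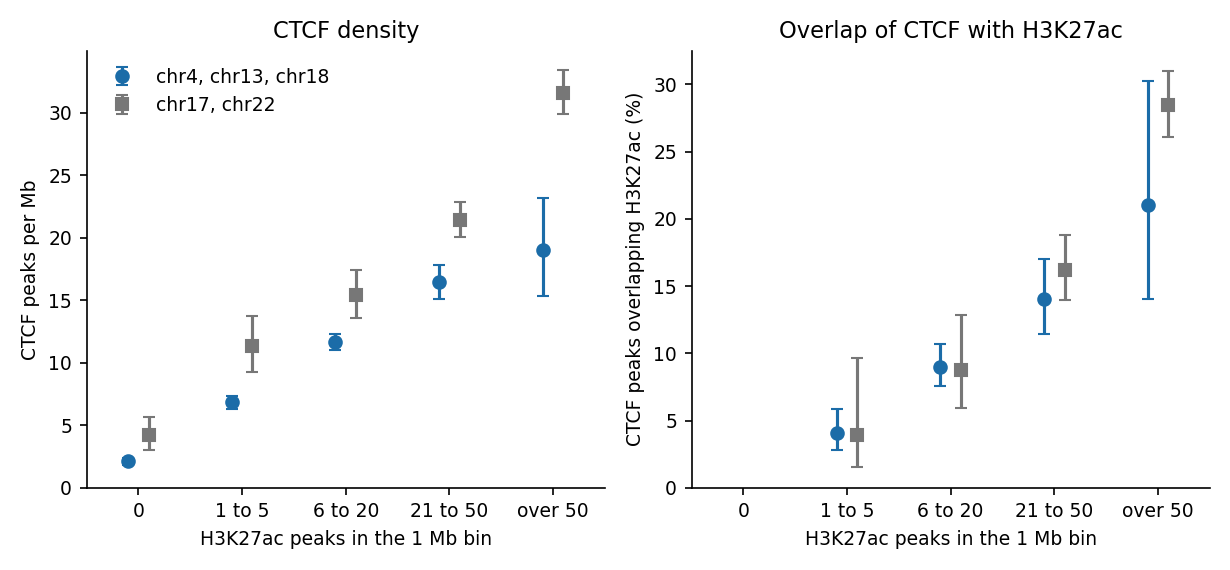
CTCF peaks per Mb (left) and percent of CTCF peaks overlapping H3K27ac (right) by the number of H3K27ac peaks in the 1 Mb bin (x axis), for chromosomes 4, 13 and 18 (circles) and chromosomes 17 and 22 (squares). Bars are 95% intervals, exact Poisson on the left and Wilson on the right. Circles lie below squares in every class on the left, and the intervals overlap in every class on the right.

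On chromosomes 4 and 13, CTCF peaks had low and H3K27ac peaks high fold enrichments. Chromosomes 4 and 13 had the lowest median CTCF fold enrichments of the autosomes, 8.62 and 8.84, and chromosome 18 had 9.22, against 11.3 on chromosome 17 and 10.7 on chromosome 22. For H3K27ac, chromosome 13 had the highest median, 5.89 (quartiles 3.95 and 11.2), and chromosome 4 the third highest, 4.79, whereas chromosome 18 had 4.45, near the 4.31 of chromosome 17. Of the H3K27ac peaks of chromosome 13, 34.7% belonged to the strongest 25% of the whole list, against 26.7% on chromosome 4 and 24.0% on chromosome 18. On chromosome 22 the median H3K27ac fold was 4.36. Fold is relative to local background. H3K27ac summits had a median of 27 fragments on both chromosomes 13 and 18, with median backgrounds of 3.18 and 5.15, and 23 over 3.70 on chromosome 4. CTCF summits had 36 fragments over 2.18 on chromosome 13, 37 over 2.62 on chromosome 4 and 47 over 3.46 on chromosome 18. The part of background in the order of the folds was not tested. H3K27ac peaks wider than 1 kb made up 27.0% on the gene-poor chromosomes, where 25.5% of the whole list were, so width differed little from the list.

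Acetylated regions that met CTCF were stronger and wider than the rest on these chromosomes. The 256 overlapping H3K27ac peaks had a median fold enrichment of 10.3 and a median width of 909.5 bases, against 4.59 and 564 bases for the 2672 others. Over all 22 autosomes the medians were 8.86 and 917 bases, against 4.31 and 543 bases. With overlap counted from 1 shared base, a wider peak is more likely to meet CTCF by construction. On chromosome 13 the medians of fold were 13.4 and 5.51, on chromosome 4 10.2 and 4.58, and on chromosome 18 7.97 and 4.31. Of the H3K27ac peaks in the strongest 25% of the list, 18.4% overlapped CTCF on the gene-poor chromosomes, against 2.04% in the weakest 25%. The same shares were 20.6% and 2.59% on chromosomes 17 and 22. Among CTCF peaks the difference was smaller, with medians of 9.98 with and 8.66 without H3K27ac.

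Of the 9 strongest CTCF peaks, 3 on each gene-poor chromosome, 3 overlapped H3K27ac. On chromosome 4 the strongest, from 191041028 to 191042283, was 1256 bases wide with a fold of 43.3 and 167 fragments at its summit (143 to 194 by the exact Poisson interval), the 14th of the whole list. It stands near the end of the long arm, in the last bin of the chromosome, which held 2 CTCF peaks and no H3K27ac. The nearest H3K27ac peak was 81.6 kb away. The next, at 3482171 to 3482611 and 3444942 to 3445746, had folds of 39.5 and 37.9, and none of these 3 overlapped H3K27ac. On chromosome 13, the peak at 53024626 to 53025128 had a fold of 33.3 and overlapped H3K27ac, as did the third, at 30498353 to 30498685, with a fold of 28.7. The second of chromosome 13, at 61047736 to 61048213 with a fold of 30.0 from 118 fragments, lay in a bin without H3K27ac, 74.9 kb from the nearest H3K27ac peak. On chromosome 18, the first, at 96455 to 97715 near the start of the chromosome, had a fold of 38.3 from 209 fragments and was 1261 bases wide. The second, at 19180822 to 19181162 with a fold of 33.0, overlapped H3K27ac, and the third, at 34923332 to 34923780 with a fold of 28.7, did not.

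Of the 9 strongest acetylated regions, chosen the same way, 1 overlapped CTCF. On chromosome 13 the strongest, at 21633766 to 21636424, had a fold of 56.99 and 237 fragments at its summit (208 to 269) and was the 27th of the whole list. The next there were 30167857 to 30170387, with a fold of 51.2, and 45914129 to 45915424, with a fold of 49.5. Only the last of these overlapped a CTCF peak. On chromosome 4 the strongest were 24585109 to 24586931 (fold 55.6), 1871579 to 1872807 (49.7) and 3954761 to 3957710 (49.2), and none of them overlapped CTCF. On chromosome 18 they were 29671307 to 29672468 (fold 43.3), 61636779 to 61638602 (41.9) and 33708613 to 33710511 (41.2), again without CTCF. The peak at 61636779 forms the edge of the longest acetylation-free stretch of chromosome 18.

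Places where both marks were strong were named by the smaller fold of each overlapping pair. On chromosome 13 the pair at 53024626 to 53025128 (CTCF fold 33.3) and 53023779 to 53024839 (H3K27ac fold 42.2) shared 214 bases, with the CTCF summit outside the H3K27ac peak. On chromosome 4 the first pair, CTCF at 668043 to 668323 (fold 33.0) and H3K27ac at 668191 to 669635 (fold 41.2), shared 133 bases, again with the summit outside. The second pair of chromosome 4, at 83350521 to 83350841, had its CTCF peak wholly inside an acetylated region of 2680 bases, with folds of 26.0 and 45.8. On chromosome 18 the first pairs were neighbours: CTCF at 19180822 to 19181162 and at 19192033 to 19192331 lay 10.9 kb apart, with folds of 33.0 and 25.7, each wholly inside an H3K27ac peak, of 3335 and 1734 bases. In 5 of the 9 pairs named on the 3 chromosomes the CTCF summit lay inside the H3K27ac peak. Of all 246 overlapping CTCF peaks there, 148 had the summit inside.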

How the data were processed

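ChIP-seq peak lists of DU145 CTCF and DU145 H3K27ac were used, 1 library each. The tools that the submitters' processing notes name are Bowtie and MACS2, and the build is hg19. Neither settings nor versions are given in the sources used here. For each peak the authors deposited a whole-number score (10 times the −log10 q, not used further), a fold enrichment (a linear ratio), −log10 p-values and −log10 q-values, and a summit offset. The lowest −log10 q, rounded, was 1.31 in each list. Positions are hg19 and count from 1.

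A peak belonged to the 1 Mb bin of its summit. Bins ran from the first to the last peak of a chromosome, and densities used the same stretch. Unsequenced parts of hg19 within that stretch were not left out. Overlap needed 1 shared base. Fragments at a summit and its background were solved from the deposited fold and −log10 p, with a tolerance of 0.002 on the latter, and with CTCF fragments multiplied by 0.911. This solved 100% of both lists. Median depth was 38 fragments at a CTCF and 25 at an H3K27ac summit of chromosomes 4, 13 and 18. Wilson and exact Poisson intervals are at 95%, and the interval of a difference combines Wilson intervals. The functions were tested on simulated peaks. Python 3.11.15, NumPy 2.4.6, pandas 2.3.3 and SciPy 1.17.1 were used.

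Named bins and stretches are the first 3 by each measure on each chromosome, and named peaks and pairs the first 3 by fold. Chromosomes, measures and alternatives were chosen with earlier results of these data known. The gene table used here is of another build (GRCh38.p14), so genes were counted per chromosome and not placed. The planned list of cancer and epithelial genes was therefore not analysed here.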

Additional observations from a re-analysis of the deposited data

How the results depend on the processing

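For 17 results, 107 alternatives were computed, 42 of them added after seeing the data (each of the 3 chromosomes left out in turn). Of all, 65 kept their value within its limits (1.5 times for densities, ratios and stretches, the 95% interval for percentages), 42 moved and 0 reversed. No paired analysis was possible because each mark has 1 library. With a −log10 q of 10 or more there were 3.81 H3K27ac peaks per Mb and 0.623 per CTCF peak, and 37.5% of bins lacked H3K27ac, of which 58.0% held CTCF. The fullest 10% of bins then held 41.5% of H3K27ac peaks, the longest stretches were 7.22 Mb on chromosome 4 and 6.58 Mb on chromosome 13, and overlap was 6.63% of CTCF (difference from chromosomes 17 and 22 −7.98) and 10.9% of H3K27ac (−4.03). With the stronger part of each list by fold there were 3.47 CTCF and 4.46 H3K27ac peaks per Mb. Of bins without H3K27ac 37.1% then held CTCF, at 0.727 per Mb, the fullest 10% of bins held 41.1% of H3K27ac and 31.9% of CTCF peaks, and the longest stretches were 7.22 Mb and 11.6 Mb on chromosomes 4 and 13. The overlap difference for CTCF was −7.81, and 7.07% of H3K27ac peaks overlapped (−3.28). Stricter lists hold fewer peaks by construction. With 2 Mb bins 18.4% lacked H3K27ac, 79.4% of these held CTCF, at 1.03 per Mb, and the fullest 10% held 42.5% of H3K27ac peaks. With 0.5 Mb bins the percentages were 45.7% and 59.1%, and the fullest 10% held 53.0% of H3K27ac and 27.5% of CTCF peaks. With bins without either mark left out, 24.5% lacked H3K27ac and the fullest 10% held 44.4% and 23.4%. Without chromosome 4 the fullest 10% held 42.7% of H3K27ac peaks, and without chromosome 13 49.5%. With the CTCF summit inside the H3K27ac peak, overlap was 5.12% of CTCF (difference −5.66) and 4.88% of H3K27ac. Within 1 kb it was 12.8% (−17.2) and 14.9% (−3.52). Beyond construction, the cause of these shifts was not tested. There are no replicates, and single peaks rest on a median of 38 (CTCF) and 25 (H3K27ac) fragments.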
